A study of Mus musculus with 36 samples.

Results

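The response of Shank3 mutant cortex to a swim, 4 h later, was described from 10 of the 36 libraries of the series. These were the 6 libraries labelled Shank3_4 and replicates 4 to 7 of Shank3_Naive, chosen by group label and by cohort, since all 10 belong to cohort 2. Both groups carried Shank3(∆C/+), HA-Rpl22(f/+) and Camk2a-Cre(+/-) on a strain that the labels write as C57BL6JL, and their labels differed only in the swim. Swim mice spent 5 min (sample label) or 6 min (protocol) in water at 25 °C and were killed 4 h later, while naive mice stayed in their home cages. The WT groups used below for comparison lacked the mutated Shank3 allele and carried the other 2 alleles. The text on RNA isolation writes the Rpl22 allele as f/f, and the sources used here give no age, no sex and no link between libraries and animals. P-values therefore measure the spread between libraries.

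Shank3 is a scaffold of the postsynaptic density that ties glutamate receptors to Homer proteins and the actin skeleton. RiboTag mice carry an HA-tagged form of the ribosomal protein Rpl22 that appears only in cells with Cre, here under the Camk2a promoter of excitatory neurons, so the RNA pulled down with the tag is RNA on ribosomes of these neurons. A forced swim is an acute stressor that raises glucocorticoids and drives neuronal activity. Activity switches on immediate early genes such as Fos and Egr1 through calcium, Ras-ERK signalling and the transcription factor CREB, and then slower effectors such as Homer1, while Ras-ERK signalling induces its own brakes, among them the Spred and Dusp proteins. Ribosome-bound RNA reflects both the amount of a transcript and its loading, and these cannot be told apart here, nor can fewer cells of a type and less RNA per cell.

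The deposited values were whole-number counts per gene. Library totals were 1.28 to 2.88 M counts in the swim group and 0.971 to 1.81 M counts in the naive group. Rows of ribosomal RNA took 0.572% to 1.17% of counts in swim libraries, against 1.56%, 1.24%, 13.5% and 38.6% in naive replicates 4 to 7, so the last pair of naive libraries stood apart. The groups also differed in strand. The library kit preserves strand, and the sources used here do not say whether the counting used the matching setting. For 1813 pairs of an annotated antisense row and a protein-coding row with overlapping exons, the share of the pair's counts on the coding rows (the pair share) was 33.1%, 17.5%, 32.7%, 21.8%, 30.1% and 18.2% in swim replicates 1 to 6, against 11.9%, 15.0%, 13.5% and 12.0% in naive replicates 4 to 7. No swim library fell into the naive range, and swim replicates 1, 3 and 5 lay highest. The means were 25.5% ± 7.23 and 13.1% ± 1.48 (SD, n = 6 and 4; exact two-sided permutation p = 0.0190, where 0.00476 is the smallest this design allows). In every library most counts of such pairs thus lay on the antisense row. Reads of a gene and of the gene opposite to it cannot be told apart in these files, so rows with no annotated gene on the opposite strand were also fitted by themselves. That class is not free of the shift, since it took 20.7% to 34.4% of all counts in swim libraries and 7.22% to 17.2% in naive libraries, without overlap (exact two-sided permutation p = 0.00952), and was highest in the same swim replicates 1, 3 and 5. The TMM factors that set the scale over all rows did not overlap either, at 1.24 to 1.82 in swim and 0.498 to 1.03 in naive libraries.

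**Figure D1:**
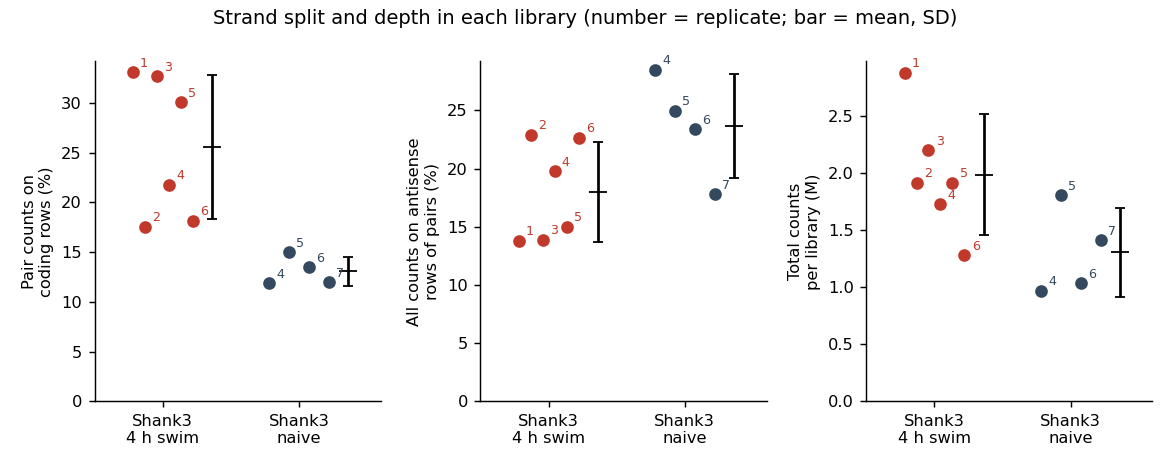
Each point is one library, numbered by replicate, with Shank3 4 h swim on the left and Shank3 naive on the right of each panel, and the bar gives the mean and SD. The percent of antisense-coding pair counts on coding rows was 17.5% to 33.1% in swim libraries and 11.9% to 15.0% in naive libraries, while antisense rows of pairs took 13.8% to 22.9% and 17.8% to 28.5% of all counts, and totals are in M counts.

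The mutated gene was examined first. Its row had 11.7 (lowest), 22.9 (median) and 34.6 (highest) CPM in swim libraries, where CPM are counts relative to the TMM-scaled library size, against 15.9, 16.2, 15.4 and 12.9 CPM in naive libraries. The groups overlapped, and the log2 fold change of swim over naive was 0.58 ± 0.29 (SE; edgeR adjusted p = 0.079). Its exons lie opposite exons of another annotated gene, the value was -0.61 ± 0.31 with the pair share as a covariate, and both groups carry the same alleles, so the row does not check the genotype.

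Across the cortex libraries the response covered most of the measured genes. Of 11341 rows tested with edgeR, 7040 (62.1%) passed an adjusted p of 0.05, with 3711 higher (32.7%) and 3329 lower (29.4%) after the swim. Direction differed by the strand class of a row. Rows with no gene opposite had a median log2 fold change of 0.62, with 2196 higher and 578 lower of 4901. Rows whose exons overlap an exon on the other strand had a median of -0.66, with 969 higher and 2614 lower of 5172. Antisense rows of pairs had a median of -1.32, and 836 of 1014 were lower. The antisense row lay below its coding row in log2 fold change in 750 of 865 pairs with both rows tested, and in 276 pairs the antisense row fell while the coding row rose. The median of all rows was 0.22 with TMM scaling, 0.33 with DESeq2 size factors and 0.99 with library totals, and changes are read against 0.22. With the pair share as a covariate, 60 rows (0.529%) passed, 41 higher (0.362%) and 19 lower (0.168%), and in the same fit on rows with no gene opposite 9 did (0.207%), 4 higher (0.0922%) and 5 lower (0.115%). The slope on the pair share came from differences within the 8 groups (genotype, treatment and cohort) of all 36 libraries. It passed in 62.9% of the rows tested (edgeR adjusted p under 0.05). With it, the common coefficient of variation between libraries fell from 24.2% to 13.3%. This fit takes out of the swim contrast the part that the slope predicts, with any swim effect that runs along with it. The pair share does not overlap between swim and naive libraries, so the swim and the pair share cannot be told apart in these 10 libraries.

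**Figure D2:**
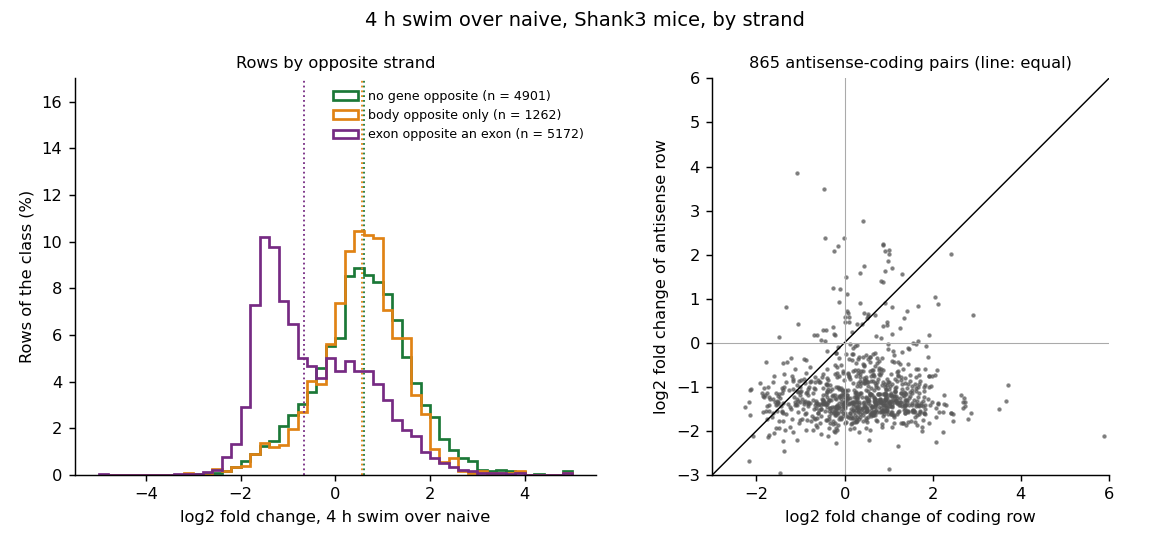
Left, the share of rows (percent of each class) by log2 fold change of 4 h swim over naive, with dotted lines at the class medians of 0.62 (no gene opposite), 0.57 (gene body opposite) and -0.66 (exon opposite an exon). Right, the log2 fold change of the antisense row against that of the coding row for 865 pairs, of which 750 lie below the line of equal change.

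Among genes with no gene opposite, the clearest rises included parts of Ras-ERK signalling. In the fit on these rows alone, with its own scaling, 2222 of 4339 (51.2%) passed, 1111 in each direction (25.6% each). Rasgrf1, a calcium-regulated exchange factor that activates Ras (chr9:89909908-90026977, mm10), had 141, 75.8, 146, 95.7, 143 and 79.1 CPM in swim replicates 1 to 6, against 18.5, 30.3, 38.0 and 22.9 CPM in naive replicates 4 to 7. All swim libraries lay above all naive libraries, with swim replicates 1, 3 and 5 highest. The log2 fold change was 2.03 ± 0.26 over all rows, 1.58 ± 0.20 in the fit on its own class and 0.88 ± 0.20 with the pair share (SE; edgeR adjusted p = 6.9e-07, 3.3e-07 and 0.021). Etv5, an ETS transcription factor downstream of ERK (chr16:22381309-22439719), had 34.6 (lowest), 63.6 (median) and 91.1 (highest) CPM after the swim and 7.95, 16.2, 14.2 and 12.9 CPM in naive libraries, again without overlap, and rose by 2.24 ± 0.30.

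Spred1 and Spred2 encode inhibitors of Ras-ERK signalling. Spred1 (chr2:117121374-117182279) had 80.1, 78.0, 66.9, 68.8, 61.9 and 65.5 CPM in swim libraries, against 22.5, 30.3, 26.1 and 20.0 CPM in naive libraries. Here the swim libraries lay close together and far above the naive ones, and the high-pair-share replicates did not stand out. Its log2 fold change of 1.47 ± 0.22 was nearly the same with the pair share, at 1.33 ± 0.24 (edgeR adjusted p = 2.3e-06 and 0.0019). Spred2 had 29.4 to 57.0 CPM after the swim against 5.73 to 17.8 CPM in naive libraries and rose by 2.00 ± 0.28, with an adjusted p of 0.056 in the edgeR fit with the pair share. The other feedback genes measured here, the phosphatases Dusp1 (-0.26), Dusp4 (-0.63), Dusp5 (0.42) and Dusp6 (-0.05) and the inhibitor Spry2 (0.42), did not pass over all rows.

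Homer1 encodes the scaffold that links group 1 metabotropic glutamate receptors to Shank proteins, and its short activity-induced form displaces the long ones. It had 127, 83.1, 113, 99.0, 85.1 and 82.1 CPM in swim libraries and 22.5, 43.3, 36.8 and 24.3 CPM in naive libraries, with no overlap. The rise was 1.59 ± 0.23 over all rows and 1.01 ± 0.23 with the pair share (edgeR adjusted p = 1.9e-06 and 0.023), and counts per gene do not separate the forms. Further named risers with no gene opposite were Slc12a5, the neuronal chloride extruder KCC2 (1.90 ± 0.27), Pgbd5, a transposase-derived gene (2.72 ± 0.38), the co-chaperone Dnajb5 (1.89 ± 0.27), N4bp1 (2.12 ± 0.31) and the spine Rap regulator Sipa1l1 (1.51 ± 0.22). For each of these 5 genes every swim library lay above every naive library. They were picked by small p in this same comparison, and the TMM factors did not overlap either, so this separation adds no support. N4bp1 had 15.8 to 22.0 CPM in swim libraries against 2.65 to 6.49 CPM in naive libraries, and passed with the pair share as well (1.69 ± 0.37).

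Genes that fell with no gene opposite held a mix of functions. Ankrd24, an ankyrin repeat protein (chr10:81628540-81647610), had 25.7 (lowest), 37.9 (median) and 49.4 (highest) CPM in swim libraries against 140.4, 129, 133 and 153 CPM in naive libraries, and fell by 1.87 ± 0.22 (log2, SE; edgeR adjusted p = 3.7e-07). Atg7, the enzyme that starts lipid conjugation in autophagy (chr6:114643097-114860614), had 46.8 (lowest), 70.3 (median) and 105 (highest) CPM after the swim and 293, 188, 213 and 331 CPM in naive libraries. Tuba1a, an alpha-tubulin of neurons (chr15:98949837-98953703), had 239, 283, 336, 247, 301 and 262 CPM in swim libraries and 604, 583, 484 and 422 CPM in naive libraries. None of these 3 genes overlapped between groups, but they were chosen by their values in this same comparison. Tuba1a had the smallest change of the 3, -0.91 ± 0.16, but it was the one that the pair share left as it was, at -0.90 ± 0.16 (edgeR adjusted p = 0.0013). The size of its fall rests on the TMM factors, which did not overlap between the groups, and library totals set the median of all rows higher.

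The other named fallers were Tlr9, an endosomal DNA receptor (-3.17 ± 0.38), the actin nucleator Fmn2 (-1.74 ± 0.22), the platelet integrin Itga2b (-2.40 ± 0.31), the thioesterase Ppt2 (-1.98 ± 0.26), the fucose transporter Slc35c1 (-1.90 ± 0.26), the receptor kinase Ltk (-1.83 ± 0.25), the lymphocyte repressor Zbtb32 (-1.71 ± 0.24) and Parp10 (-2.02 ± 0.29). In all 8, which were picked by small p in this comparison, every swim library was below every naive library, and none passed with the pair share. Tlr9, Itga2b and Zbtb32 are known best from immune or blood cells, and their levels here were low, with 0.800 to 6.82 CPM, 2.82 to 9.26 CPM and 9.86 to 24.3 CPM after the swim.

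**Figure D3:**
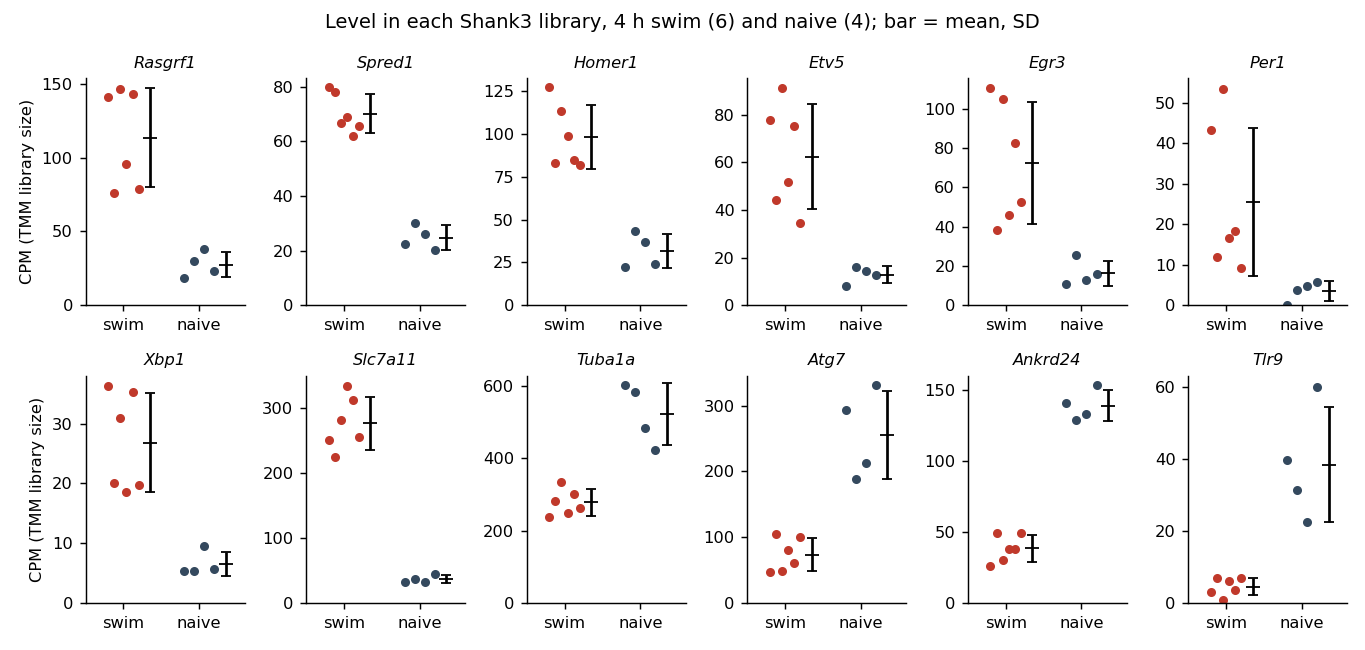
CPM on TMM-scaled library sizes in each of 6 Shank3 4 h swim libraries (left of each panel) and 4 Shank3 naive libraries (right), with the mean and SD beside them. In all 12 genes shown the groups do not overlap, with 8 genes higher and 4 genes (Tuba1a, Atg7, Ankrd24, Tlr9) lower after the swim. Most were named for a small p in this comparison, so the separation adds no support.

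After the values were seen, the rows that passed with the pair share and have no gene opposite were listed. There were 12 of 4901, of which 8 rose and 4 fell, against 60 of all 11341 rows (0.529%). In the fit on that class alone with the pair share, 4 were higher and 5 lower of 4339, so not all 12 pass there. Beside Rasgrf1, Etv5, Spred1, Homer1 and N4bp1, the risers were the chromatin reader Phf20 (1.03 ± 0.25), the kinase Stk38l (1.37 ± 0.34) and the ubiquitin ligase Arih1 (0.84 ± 0.21), given here as log2 fold changes with the pair share. Beside Ankrd24, Atg7 and Tuba1a, the faller was Rprm, an inhibitor of the cell cycle, with 15.3 to 29.7 CPM in swim and 18.6 to 46.3 CPM in naive libraries. Rprm fell by 0.72 over all rows and by 1.15 with the pair share, but stood at 0.066 when scaled by library totals. Stk38l depended on 1 naive library, since without naive replicate 5 its log2 value over all rows was 1.77 in place of 1.18. Of all 60 rows, 51 had passed in the same direction without the covariate and 5 pointed the other way there, and 53 passed in the same direction in WT mice with the pair share, where 7.69% of rows passed. Both genotypes share 1 slope on the pair share in that fit. An error in the slope would move both the same way, so the match with WT is not independent support. The remaining rows include Oprm1, the mu opioid receptor (3.28 ± 0.72), Rack1, a protein of the small ribosomal subunit (1.98 ± 0.48), and the endosomal sorting gene Chmp4c (1.62 ± 0.28), all with exons opposite another gene.

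Activity-regulated genes were higher at 4 h for most members, with exceptions. Of 18 rapid immediate early genes tested, 10 rose, 4 fell and 4 did not pass, and their median was 1.11. Among all rows 32.7% were higher and 29.4% lower, but 13 of the 18 have no gene opposite. That class had 44.8% higher and 11.8% lower in the same fit, with a median of 0.62. Counts of this and the following lists are read against both. Egr3, a zinc finger transcription factor, had 38.3 (lowest), 67.4 (median) and 110.4 (highest) CPM after the swim and 10.6, 25.4, 13.1 and 15.7 CPM in naive libraries and rose by 2.08 ± 0.33 (edgeR adjusted p = 4.4e-06). Egr1, the best known member of the same family, had 100.1 to 266 CPM in swim libraries against 42.4 to 74.4 CPM in naive libraries and rose by 1.51 ± 0.27. Nr4a1, an orphan nuclear receptor, had 48.9, 18.7, 34.4, 11.3, 29.7 and 6.18 CPM in swim replicates 1 to 6 against 2.65, 6.49, 7.12 and 10.0 CPM in naive libraries, so swim replicate 6 fell inside the naive range. Fos (1.63), Fosb (2.13), Egr2 (2.91) and Arc (1.52) rose too. Jund (-1.07), Egr4 (-0.93), Btg2 (-1.20) and Maff (-1.74) fell.

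Of 27 delayed activity-regulated genes, 16 rose, 2 fell and 9 did not pass, with a median of 0.64. Plk2, a kinase that acts on spine Rap and Ras regulators, had 111 (lowest), 139.9 (median) and 177 (highest) CPM after the swim, against 45.0, 73.5, 54.6 and 51.5 CPM in naive libraries, and rose by 1.33 ± 0.21 without overlap. The nuclear receptors Nr4a2 (1.68) and Nr4a3 (1.68), the pentraxin Nptx2 (1.67), which gathers AMPA receptors, and Rasgrp1 (1.4) rose. Vgf (-0.94), the precursor of secreted peptides, and Mest (-1.0) fell. In the fit on rows with no gene opposite, 7 rose and 3 fell of 13 rapid genes and 9 rose and 3 fell of 18 delayed genes, with medians of 1.04 and 0.50. None of the rapid genes passed with the pair share, and of the delayed genes Homer1 and Spred1 did. The median of the rapid genes was then 0.24.

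CREB binds the cyclic AMP response element, so promoters of the activity and clock genes were searched for its full palindrome TGACGTCA, which reads the same on both strands, and for the clock E-box CACGTG. RefSeq promoters of GRCm38.p6, from 250 bases before to 50 after the start, were found for 51 of 63 genes tested. The palindrome stood in 8 of them, of which 3 rose, 2 fell and 3 did not pass, while 28 of the 43 without it rose. It is present in 1.79% of all 32851 RefSeq promoters of that length, and the E-box in 7.15%. The 5 promoters below belong to the genes with the palindrome that passed the test, and show that the same letters stood before genes that rose and genes that fell. They are Plk2 at chr13:110394794-110395093 (plus strand), Pcsk1, a prohormone convertase, at chr13:75089607-75089906 (plus strand), Hlf, a clock output factor, at chr11:90390868-90391167 (minus strand), Btg2, an antiproliferative gene, at chr1:134079106-134079405 (minus strand), and Maff, a small Maf factor, at chr15:79347270-79347569 (plus strand). Capitals mark the palindrome and, in Maff, also an E-box.
Plk2: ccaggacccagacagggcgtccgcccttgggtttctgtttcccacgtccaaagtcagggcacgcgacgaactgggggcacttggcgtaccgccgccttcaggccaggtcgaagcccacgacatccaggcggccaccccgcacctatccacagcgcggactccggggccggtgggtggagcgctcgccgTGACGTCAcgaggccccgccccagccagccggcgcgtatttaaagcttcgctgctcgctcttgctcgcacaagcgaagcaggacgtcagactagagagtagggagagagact
Pcsk1: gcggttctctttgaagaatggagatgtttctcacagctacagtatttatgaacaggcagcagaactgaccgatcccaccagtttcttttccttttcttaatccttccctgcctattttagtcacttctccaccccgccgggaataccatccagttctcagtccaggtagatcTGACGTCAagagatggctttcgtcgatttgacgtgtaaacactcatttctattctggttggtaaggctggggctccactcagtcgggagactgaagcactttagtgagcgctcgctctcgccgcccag
Hlf: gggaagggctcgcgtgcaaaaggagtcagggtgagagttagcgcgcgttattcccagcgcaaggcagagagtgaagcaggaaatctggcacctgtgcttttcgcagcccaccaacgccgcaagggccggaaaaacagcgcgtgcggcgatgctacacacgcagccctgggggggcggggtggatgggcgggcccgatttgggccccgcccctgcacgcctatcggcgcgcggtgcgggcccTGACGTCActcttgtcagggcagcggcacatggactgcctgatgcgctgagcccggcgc
Btg2: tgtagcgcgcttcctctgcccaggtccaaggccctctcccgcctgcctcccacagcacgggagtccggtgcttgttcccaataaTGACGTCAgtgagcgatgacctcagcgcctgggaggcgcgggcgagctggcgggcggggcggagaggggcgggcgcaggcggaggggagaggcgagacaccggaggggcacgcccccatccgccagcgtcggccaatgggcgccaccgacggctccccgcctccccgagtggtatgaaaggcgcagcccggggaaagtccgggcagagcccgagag
Maff: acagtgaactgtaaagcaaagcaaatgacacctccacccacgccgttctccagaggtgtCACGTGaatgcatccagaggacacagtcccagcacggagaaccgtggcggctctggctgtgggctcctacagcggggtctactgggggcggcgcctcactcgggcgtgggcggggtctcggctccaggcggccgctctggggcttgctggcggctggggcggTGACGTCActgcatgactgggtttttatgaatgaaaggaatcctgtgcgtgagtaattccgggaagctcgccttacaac

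Plk2, Pcsk1 and Hlf rose by 1.33, 0.93 and 1.22 on the log2 scale, and Btg2 and Maff changed by -1.20 and -1.74. A match describes the letters only and shows no binding.

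Of 15 glucocorticoid-responsive genes, 8 rose, 2 fell and 5 did not pass, with a median of 0.50. Among all rows 32.7% were higher and 29.4% lower, and among those with no gene opposite 44.8% and 11.8%. Tsc22d1 had 97.6 (lowest), 127 (median) and 167 (highest) CPM after the swim against 43.7, 75.7, 62.9 and 57.3 CPM in naive libraries, with no overlap, and rose by 1.10 ± 0.20 (edgeR adjusted p = 1.7e-05). Sgk1, a kinase that glucocorticoids induce, rose by 1.79, and Fkbp5, which damps the glucocorticoid receptor, by 0.97. The receptor gene Nr3c1 rose by 0.50. Tsc22d3 (0.52), another classical target, did not pass, and Ddit4 (-1.28) fell. On rows with no gene opposite, 3 rose and 1 fell of 9, with a median of 0.09, close to 0.

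The clock list had the highest median of the response and pathway lists over all rows, 1.39, and of its 19 members 14 rose, 1 fell and 4 did not pass. Per1, a repressor of the clock and a target of both CREB and the glucocorticoid receptor, had 43.1, 11.9, 53.3, 16.5, 18.3 and 9.26 CPM in swim replicates 1 to 6 against 0, 3.78, 4.75 and 5.73 CPM in naive libraries, and rose by 2.85 ± 0.53 (edgeR adjusted p = 2.8e-05). Every swim library lay above the naive ones, and swim replicates 1 and 3 were far above the rest. Per2 (1.68), Per3 (2.22), Cry1 (2.54) and Cry2 (1.50) rose as well. Nr1d1, a repressor of Arntl, had 1141 to 2924 CPM in swim libraries against 4840.5 to 7434 CPM in naive libraries and was the single member that fell (-1.63 ± 0.26), while its relative Nr1d2 rose by 0.79. The exons of Nr1d1 and Bhlhe40 lie opposite exons of other genes. Bhlhe40 rose by 1.83 ± 0.28 on its own row but stood at -0.69 when its row was summed with the antisense row. The sources used here do not give the hour of day at which mice were killed, so clock phase and swim cannot be told apart. On rows with no gene opposite 3 rose and 0 fell of 6 clock genes, with a median of 0.57.

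Of 21 heat shock response genes (chaperones, cochaperones and Hsf1), 7 rose, 5 fell and 9 did not pass, shares near the 32.7% higher and 29.4% lower among all rows, and the median of -0.28 lay below that of all rows. The Hsp90 cochaperone Stip1 (1.33 ± 0.22) and the heat shock factor Hsf1 (3.62) rose, while Hsp90ab1 (-1.11), the stress-induced Hspa1b (-0.83) and the mitochondrial cochaperonin Hspe1 (-1.52 ± 0.25) fell. Of 16 endoplasmic reticulum stress genes, 7 rose, 2 fell and 7 did not pass. Among all rows with no gene opposite, the class of 8 of the 16, 44.8% were higher and 11.8% lower. Xbp1, the transcription factor activated by IRE1 splicing, had 36.4, 20.0, 30.9, 18.5, 35.3 and 19.8 CPM in swim libraries and 5.30, 5.41, 9.50 and 5.73 CPM in naive libraries and rose by 2.09 ± 0.33 without overlap (edgeR adjusted p = 4.4e-06). Herpud1 (2.54), Hyou1 (1.32), Atf6 (1.06) and the chaperone Hspa5 (0.64) rose, and Syvn1 (-1.36 ± 0.24) fell on a row with exons opposite another gene.

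Of 20 ATF4 targets, 9 rose, 5 fell and 6 did not pass, against 32.7% higher and 29.4% lower among all rows. Their median was 0.44. In the fit on rows with no gene opposite, 3 rose and 3 fell of 8 with a median of -0.34, so the direction of this median differed between the fits. Gars, the glycine tRNA ligase, had 75.4 to 105 CPM in swim libraries against 21.2 to 40.6 CPM in naive libraries and rose by 1.42 ± 0.24. Atf4 itself (1.09) and Asns (1.14) rose, while Ddit3 (-0.86), Cebpb (-1.71) and Psph (-1.79 ± 0.31) fell, all 3 of them on rows opposite exons of other genes. Of 17 NRF2 targets, 11 rose, 1 fell and 5 did not pass, with a median of 0.89, while on rows with no gene opposite 3 rose and 1 fell of 10 (median 0.38). Tkt (2.03 ± 0.41) and Taldo1 (2.29) of the pentose phosphate pathway and the ferritins Fth1 (1.14 ± 0.23) and Ftl1 (2.06) rose, while the glutathione synthesis gene Gclc stood at -0.03 and Sqstm1 fell (-0.61).

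Slc7a11, on both of these lists, encodes the cystine-glutamate exchanger on a row with a gene body but no exon opposite. It had 252, 225, 283, 334, 313 and 255 CPM in Shank3 swim replicates 1 to 6 and 31.8, 37.3, 32.1 and 44.4 CPM in Shank3 naive replicates 4 to 7. The lowest swim library was thus far above the highest naive library, and the swim values followed no split by pair share. The log2 fold change was 2.93 ± 0.56 (SE; edgeR adjusted p = 4.9e-05), and 1.76 ± 0.69 with the pair share (adjusted p = 0.24). In WT mice it ran the other way, with 4.70 to 13.9 CPM after the swim against 3.95 to 36.7 CPM in naive libraries (-1.44 ± 0.61, edgeR adjusted p = 0.043). At 1 h Shank3 mice averaged 89.4 ± 89.8 CPM in swim libraries against 21.3 ± 1.50 CPM in naive mice of cohort 1 (SD, n = 5 and 3), so the 1 h group was widely spread.

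Genes of energy metabolism and protein synthesis rose in larger shares than all rows did (32.7% higher, and 44.8% among rows with no gene opposite). Of 77 nuclear oxidative phosphorylation genes, 58 rose, 3 fell and 16 did not pass, with a median of 1.18, and of 75 ribosomal protein genes, 48 rose, 6 fell and 21 did not pass, with a median of 1.14. Ndufv1, a core subunit of complex I, had 53.7 (lowest), 75.6 (median) and 117 (highest) CPM after the swim and 21.2, 31.9, 22.6 and 27.2 CPM in naive libraries and rose by 1.63 ± 0.27 (edgeR adjusted p = 7.0e-06). Cox8a of complex IV had 8.65 to 37.3 CPM in swim libraries against 1.32 to 2.37 CPM in naive libraries and rose by 3.46 ± 0.60, from few counts in naive libraries, and Cox6a1 rose by 2.57 ± 0.47. The 3 ribosomal protein genes with the smallest p all fell, Rps28 (-1.61 ± 0.25), Rps25 (-1.42 ± 0.24) and Rpl15 (-1.64 ± 0.28), and all have exons opposite another gene. Those with no gene opposite went mostly the other way. On such rows 27 rose and 3 fell of 49 ribosomal protein genes, with a median of 0.80, and 32 rose and 2 fell of 49 oxidative phosphorylation genes, with a median of 0.97. None of either list passed with the pair share, and the medians were 0.08 and 0.11.

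Of 51 translation factors, 27 rose, 8 fell and 16 did not pass, with a median of 0.63. On rows with no gene opposite 16 rose and 9 fell of 35, with a median of 0.40, and the median with the pair share was 0.14. Eef2, the elongation factor that moves the ribosome along, had 154 (lowest), 289.7 (median) and 472 (highest) CPM in swim libraries against 59.6, 80.6, 68.9 and 61.6 CPM in naive libraries and rose by 2.11 ± 0.33, and the neuronal elongation factor Eef1a2 had 421 to 1165 CPM in swim libraries against 223 to 275 CPM in naive libraries (1.59 ± 0.27). Eif1a (-0.83), Eif3a (-0.84) and Eif4b (-0.55) fell on rows with no gene opposite. Of 39 proteasome genes, 24 rose, 3 fell and 12 did not pass, with a median of 0.80. On rows with no gene opposite 11 rose and 2 fell of 23, with a median of 0.40, and the median with the pair share was 0.13. Psma7 (1.51 ± 0.24), Psma1 (1.91 ± 0.34) and Psmd8 (2.75 ± 0.44) rose without overlap between groups. Of 20 sterol synthesis genes, 9 rose, 1 fell and 10 did not pass, and on rows with no gene opposite 2 rose and 1 fell of 10. In the fit over all rows, 32.7% of all rows and 44.8% of rows with no gene opposite were higher.

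Of 12 mitochondrially encoded genes, 5 rose, 1 fell and 6 did not pass, from low counts, and leaving out 1 library moved the median of 1.33 between 0.45 and 1.75. mt-Co1 had 97.6 to 259 CPM in swim libraries against 32.9 to 83.3 CPM in naive libraries and rose by 1.57 ± 0.34, while mt-Nd6, the one protein gene on the light strand, had 50.0 to 92.5 CPM in swim libraries against 128 to 163 CPM in naive libraries and fell (-1.0 ± 0.21). Both rows have an exon opposite. mt-Co2 had 71 counts over all swim libraries and 0 over all naive libraries.

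Synaptic genes rose in part. Of 35 postsynaptic density genes, 21 rose, 2 fell and 12 did not pass, with a median of 0.66. In the fit on rows with no gene opposite, 6 rose and 4 fell of 16, with a median of 0.22. Shank2, a relative of Shank3, had 38.3 (lowest), 73.0 (median) and 92.5 (highest) CPM after the swim and 22.5, 26.0, 19.0 and 18.6 CPM in naive libraries and rose by 1.67 ± 0.23 (edgeR adjusted p = 1.4e-06). Its row has a gene body but no exon opposite. Dlgap4 (2.21 ± 0.31), Dlgap3 (1.80), Dlg4, which encodes PSD-95 (1.70), and the actin regulator Baiap2 (2.28) rose. Homer3 (-1.67 ± 0.24) and Nlgn1 (-1.43) fell, both with exons opposite another gene. Homer1 was the single postsynaptic gene that passed with the pair share, where the median of the list was 0.02.

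Of 35 presynaptic genes, 23 rose, 4 fell and 8 did not pass, with a median of 0.67. On rows with no gene opposite 8 rose and 2 fell of 14, and none of the list passed with the pair share (median 0.20). Syn1, a vesicle phosphoprotein, had 200.2 to 685 CPM in swim libraries against 80.8 to 121 CPM in naive libraries and rose by 1.99 ± 0.31, and Nsf, which takes SNARE complexes apart, rose by 1.50 ± 0.24. Syt1 (-0.57) and Syp (-0.73) fell. Of 20 glutamate receptor genes, 6 rose, 1 fell and 13 did not pass, a share of rises near that of all rows, and of 13 GABA-A receptor genes, 6 rose, 1 fell and 6 did not pass. In the same fit, 32.7% of all rows and 44.8% of rows with no gene opposite were higher. Among glutamate receptor genes Grin1, the obligate NMDA receptor subunit, rose by 1.38 ± 0.27 on its own row but stood at -1.37 when summed with its antisense row, and Grin2d fell (-1.59 ± 0.27). The AMPA receptor subunit Gria1 rose by 0.70, while Gria2 was at 0.21 and did not pass. Among GABA-A receptor genes Gabrd (-1.02), which sits outside synapses, fell.

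Of 53 ion channel genes, 21 rose, 11 fell and 21 did not pass, against 32.7% higher and 29.4% lower among all rows. Their median was 0.33. The potassium channel subunit Kcns2, with no gene opposite, had 19.0 to 26.0 CPM after the swim and 36.8 to 80.2 CPM in naive libraries and fell (-1.35 ± 0.22), as did Kcnn2 (-1.72 ± 0.27), the inward rectifier Kcnj3 (-0.87) and the pacemaker channel Hcn2 (-1.05). Kcnab2 (1.46 ± 0.25) and the calcium channel subunit Cacnb3 (1.74) rose. In the fit on rows with no gene opposite, 5 rose and 8 fell of 23 channel genes, and 1 rose and 3 fell of 5 GABA-A genes with a median of -0.77, so the direction of the GABA-A median differed between the fits.

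**Figure D4:**
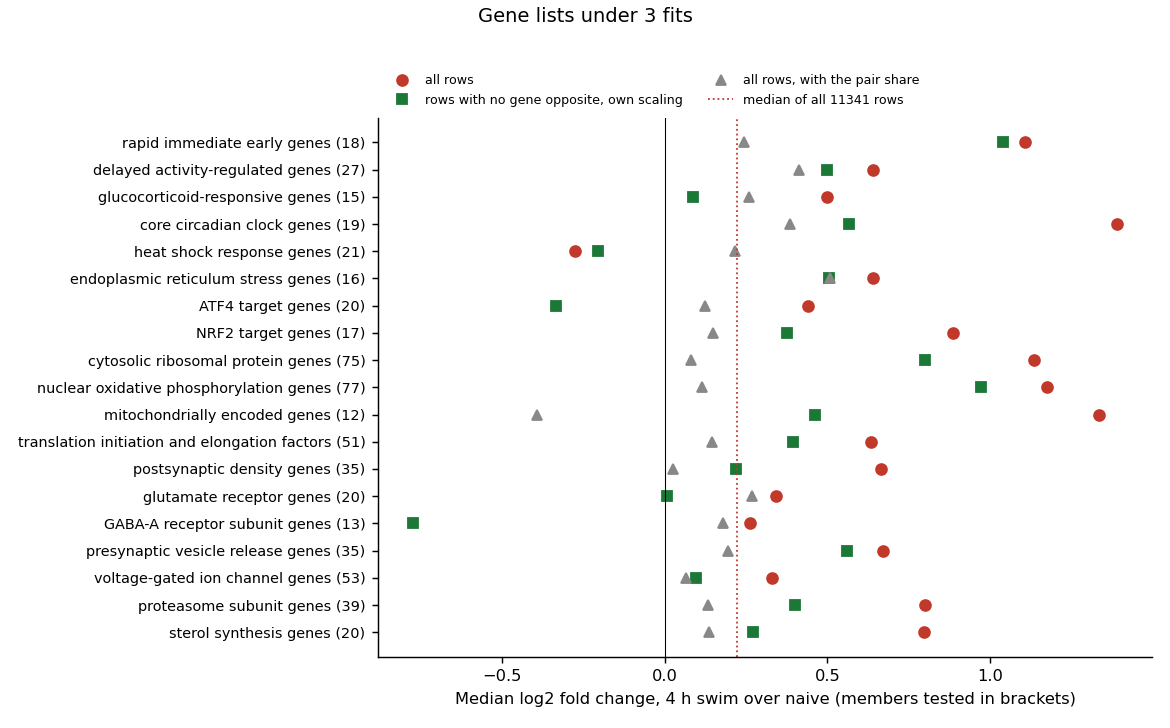
Median log2 fold change of 4 h swim over naive for 19 gene lists (members tested in brackets) in the fit over all rows (circles), in the fit on rows with no gene opposite (squares) and with the pair share as covariate (triangles). The dotted line is the median of all 11341 rows, 0.22, and most circles lie right of it while the triangles lie between -0.39 and 0.51.

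Antisense rows were then compared with one another, since they hold most counts of the pairs and share the direction of the strand shift. Over all rows 836 of 1014 antisense rows were lower and 35 higher, so the directions that follow are relative to the other antisense rows. Of 1022 such rows, 351 (34.3%) passed, 199 higher (19.5%) and 152 lower (14.9%), and on this scale the median size was 1.17 among the rises and 0.49 among the falls (log2). CPM values are here relative to the counts on antisense rows. Ube4bos1, opposite the ubiquitin ligase gene Ube4b (chr4:149347885-149365277), had 1455, 984, 1709.7, 1269, 1511 and 1089 CPM in swim libraries against 315, 418, 328 and 361 CPM in naive libraries. All swim libraries stood far above the naive ones, and the row rose by 1.90 ± 0.21 (SE; edgeR adjusted p = 1.6e-07), or 1.02 with the pair share. Hectd2os had 164 to 468 CPM in swim libraries against 3.71 to 32.5 CPM in naive libraries and rose by 4.07 ± 0.58 (4.92 without naive replicate 5). In the fit over all rows Hectd2os rose by 2.75, while the coding row Hectd2 stood at 0.43. Gm37401, opposite the GTPase gene Rhoa, had 266 to 1608 CPM in swim libraries against 71.6 to 126 CPM in naive libraries, with the high-pair-share replicates 1, 3 and 5 on top.

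Relative to other antisense rows, rises were also seen opposite Hook3 (1.90 ± 0.24), Usp29 (1.59 ± 0.21), Jakmip3 (1.73 ± 0.24), Sgip1 (1.03 ± 0.14), the cyclin gene Ccnd2 (1.85 ± 0.25), Fgf14 (3.48 ± 0.54), the postsynaptic gene Sorbs2 (1.44 ± 0.25), Hmgcs1 of sterol synthesis (0.92 ± 0.25) and Bdnf (1.00 ± 0.26). The row opposite Bdnf had 103 to 229 CPM in swim and 62.8 to 105 CPM in naive libraries, with overlap in 1 swim library. In the fit over all rows, the antisense rows opposite Sgip1, Hmgcs1 and Bdnf stood at -0.32, -0.33 and -0.32 and did not pass, so their direction depends on the scaling, and those opposite Usp29, Jakmip3 and Sorbs2 (0.20, 0.48 and 0.15) did not pass either. Gm16754, opposite Keap1, the inhibitor of NRF2, had 2215, 2604, 2686, 2391, 2268 and 2457 CPM in swim libraries and 3632, 3493, 3676 and 3378 CPM in naive libraries, no library overlapped, and the row fell by 0.54 ± 0.07 (edgeR adjusted p = 4.5e-07). Of 4 antisense rows opposite oxidative phosphorylation genes, 3 fell, those of Atp5o (-0.65 ± 0.10), Ndufb2 (-0.62 ± 0.09) and Atp5l (-0.54 ± 0.11), and that of Ndufa9 rose (0.24 ± 0.08). The row opposite Atpif1, an inhibitor of ATP synthase, fell (-0.53 ± 0.08), as did those opposite the ubiquitin hydrolase Uchl1 (-0.57 ± 0.10) and synaptophysin, Syp (-0.48 ± 0.13). In the fit over all rows the coding row of Atp5o rose by 1.65 and that of Atp5l by 2.81, a scale unlike that of the antisense values given here. With the pair share, 27 antisense rows passed (2.64%), 19 higher (1.86%) and 8 lower (0.783%). Of the 351 calls without it, 295 were also called in WT mice in the same direction, where 408 antisense rows (39.9%) passed.

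**Figure D5:**
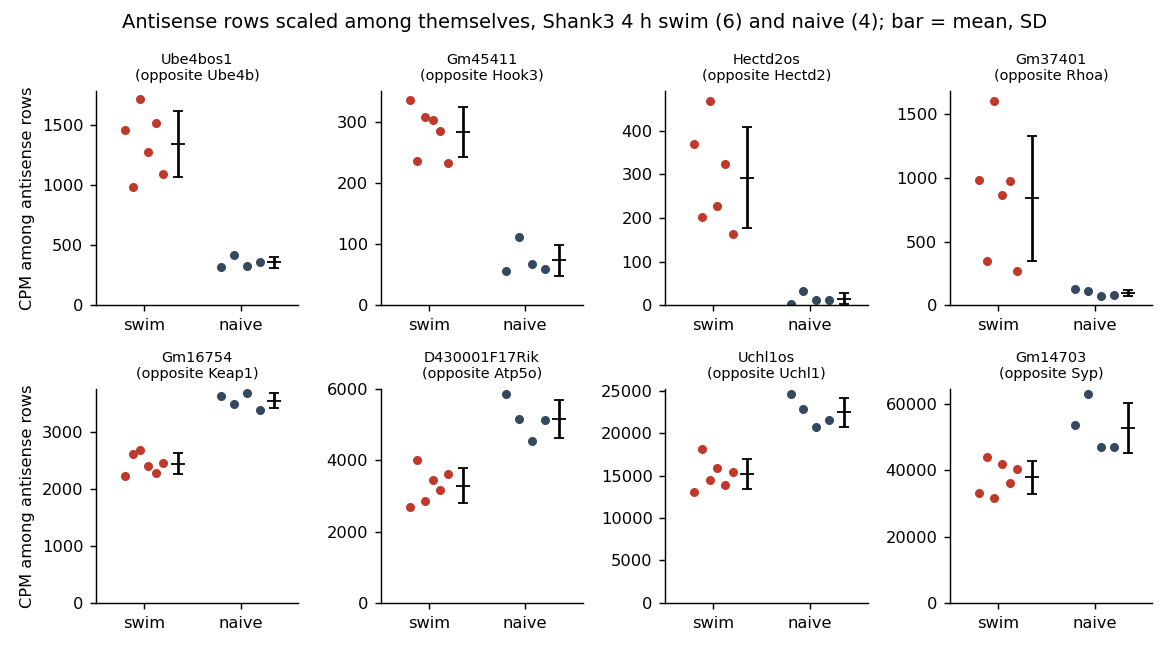
CPM among antisense rows (relative to the counts on these rows, own TMM scaling) in 6 Shank3 4 h swim libraries (left) and 4 Shank3 naive libraries (right), with the mean and SD. Relative to antisense rows, the upper 4 rose and the lower 4 fell after the swim, with no overlap between groups in any of them.

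Summing both rows of a pair removes the division of counts within it, though most features of that fit are still single rows and its scaling carries the strand shift. Of its 10563 features, 6522 (61.7%) passed, 3404 higher (32.2%) and 3118 lower (29.5%), and with the pair share 29 and 18 did. Kcnip4, which encodes a potassium channel partner, rose most clearly (1.48 ± 0.23, edgeR adjusted p = 2.7e-06), with 630 coding and 17 antisense counts in all swim libraries against 37 and 14 in all naive libraries. Hectd2 (2.16 ± 0.37) and the sodium channel partner Fgf14 (1.82 ± 0.31) rose mostly on the antisense row, which held 611 and 1010 swim counts against 21 and 51 naive counts. Lrrc40 (1.35 ± 0.24) rose on both rows, and Rps2 (2.40 ± 0.42) had no counts on its antisense row. Ttc34 (-2.52 ± 0.28), Arhgap27 (-1.91 ± 0.23), Bloc1s5 (-2.07 ± 0.25), Ccdc13 (-2.04 ± 0.26) and the ERK-activated kinase gene Mknk1 (-1.70 ± 0.21) fell. In Mknk1 the antisense row carried most counts, 1056 of the swim group and 884 of the naive group, and the coding row stood at 0.17 and did not pass.

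Markers of the labelled cells were present. The 20 pyramidal markers summed to 2631 to 4341 CPM in swim and 1836 to 2285 CPM in naive libraries, Camk2a alone had 1320.0 to 2020.5 CPM in swim libraries against 779 to 1018 CPM in naive libraries, and no member was at 0. Their sum was higher after the swim (exact two-sided permutation p = 0.0143, adjusted over 7 lists 0.0200), and Camk2a rose by 0.88 ± 0.21. The sum over the 17 pyramidal rows with no gene opposite differed too (exact permutation p = 0.00952, not adjusted). In the fit on that class 4 rose and 1 fell of 15 pyramidal markers, with a median of 0.14. With the pair share none passed, and the median was 0.02. The sums of astrocyte (p = 0.00476), oligodendrocyte (0.00952), microglia (0.00476) and endothelial markers (0.00952) differed too in the exact permutation test, with an adjusted p of 0.0167 each, while those of interneuron (0.0857) and choroid plexus and blood markers (0.448) did not pass. Their part in the gene results was not tested. The 17 astrocyte markers summed to 176 to 255 CPM in swim and 114 to 156 CPM in naive libraries, and the 16 oligodendrocyte markers to 163 to 359 CPM in swim and 110.2 to 163 CPM in naive libraries. On the 10 oligodendrocyte rows with no gene opposite the sums were 24.5 to 38.4 CPM in swim libraries against 27.2 to 35.8 CPM in naive libraries, which overlap (exact permutation p = 0.910). The 17 interneuron markers summed to 98.8 to 227 CPM in swim and 80.2 to 123 CPM in naive libraries. Their 11 rows with no gene opposite summed to 61.8 to 187 CPM in swim and 34.4 to 50.8 CPM in naive libraries. These did not overlap (exact permutation p = 0.0190, not adjusted). The 12 endothelial and mural markers summed to 26.8 to 49.2 CPM in swim and 14.3 to 26.0 CPM in naive libraries, with Cldn5, Kdr and Ly6c1 at 0. Of these 12 only Bsg had enough counts to be tested (log2 fold change 1.24). Flt1, Pecam1, Tek, Slco1a4, Vtn and Acta2 had 1 to 10 counts in all, so the endothelial sum says little about endothelial cells. The 14 microglia markers summed to 173 to 377 CPM in swim and 568 to 816 CPM in naive libraries, nearly all of it on Csf1r (162 to 357 CPM in swim libraries against 555 to 797 CPM in naive libraries), whose exons lie opposite another gene. The 10 microglia rows with no gene opposite summed to 1.85 to 3.83 CPM in swim libraries against 0 to 3.24 CPM in naive libraries, and P2ry12, Tmem119, C1qa, C1qb and C1qc had at most 10 counts in all. The 8 choroid plexus and blood markers summed to 1.93 to 4.26 CPM in swim and 1.43 to 3.97 CPM in naive libraries, with Folr1 at 0 and Ttr and the hemoglobin genes at 10 counts or fewer. Their 6 rows with no gene opposite summed to 0.805 to 2.13 CPM in swim and 0 to 1.08 CPM in naive libraries. These overlapped and rest on few counts (exact permutation p = 0.00952, not adjusted).

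The WT response at 4 h used other libraries, 5 swim and 4 naive, and called 6350 rows (56%), 3294 higher (29%) and 3056 lower (26.9%). Of the Shank3 calls 77.8% were also called in WT in the same direction, which is 86.2% of the WT calls, and 1 row was called in opposite directions. The pair share was 17% to 31.6% in WT swim and 11.7% to 14.9% in WT naive libraries, and the pair shares of Shank3 and WT swim libraries overlapped (means 25.5% and 23.2%, exact two-sided permutation p = 0.530). In the interaction test, which asks whether the Shank3 response differs from the WT response, no row passed in edgeR (0 of 11341, 302 at an unadjusted p under 0.05), while DESeq2 called 1, Slc7a11, and edgeR with no filter on low counts called 5, Slc7a11 among them. The interaction of Slc7a11 was 4.37 ± 0.82 (edgeR adjusted p = 0.062). The rows next in order were Mvb12a, Tjap1, Slc9a5 and Anks3, each with an edgeR adjusted p of 1. Mvb12a had 1.61 to 8.05 CPM in Shank3 swim libraries and 0 in Shank3 naive libraries, and Anks3 had 6.82 to 10.4 CPM in swim libraries against 2.16 to 3.97 CPM in naive libraries. Among antisense rows the interaction called none, with 43 at an unadjusted p under 0.05.

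Against naive mice of cohort 1, Shank3 mice at 1 h had 1388 rows called (12.2%), 566 higher (4.99%) and 822 lower (7.25%). The test of the difference between the 4 h and 1 h responses called 335 rows (2.95%), 116 more positive at 4 h (1.02%) and 219 more negative (1.93%), and time and cohort cannot be told apart. Without swim replicate 1, 3 or 5 or naive replicate 4 these counts fell to 39 to 45 and 115 to 129, without swim replicate 2 or 6 they were 346 and 628 or 269 and 527, and without both naive replicates 6 and 7 they were 6 and 72. The rows with the smallest p were Prpf39, a splicing factor (-0.61 at 4 h and 2.54 at 1 h), the kinase Araf (-1.15 at 4 h and 1.23 at 1 h), the sheddase Adam17 (-0.69 at 4 h and 3.41 at 1 h), Sla2 (-0.66 at 4 h and 1.85 at 1 h) and the mitochondrial myosin Myo19 (-0.48 at 4 h and 2.59 at 1 h). All 5 have exons opposite another gene, and the 4 h values of Prpf39, Adam17, Sla2 and Myo19 turned positive when scaled by library totals. Among genes with no gene opposite, Etv5 stood at 2.24 at 4 h and 0.18 at 1 h, Egr3 at 2.08 at 4 h and -0.16 at 1 h and Xbp1 at 2.09 at 4 h and -0.35 at 1 h, and each differed between times (edgeR adjusted p = 0.013, 0.012 and 0.013). The same test called 40 and 65 rows with the pair share. How these 3 genes stand in that setting or with libraries left out is not given here. In the swim response Etv5 passed with the pair share, while Egr3 and Xbp1 did not. Xbp1 was highest in swim replicates 1, 3 and 5, the libraries with the highest pair share. Nr4a1 stood at 1.98 at 4 h and 3.06 at 1 h, with an edgeR adjusted p of 0.46 for the difference.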

How the data were processed

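Ribosome-bound RNA was measured in 36 libraries. The authors deposited whole-number read counts per gene for each library, 55470 rows per file, made with stranded mRNA libraries and the mm10 build, per the labels. Trimmomatic 0.39, HISAT2 2.2.0, StringTie 2.1.3, Salmon 1.4, FastQC and DESeq2 are named in the submitters' processing notes, but which of them made the counts, and with which strand setting, is not given in the sources used here. Counts set against the wrong strand would move reads between a gene and its antisense partner.

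The counts were used as deposited. Rows were assigned to strand classes with GENCODE vM21 positions, which use the same build. TMM scaling, edgeR's filter on low counts and its robust quasi-likelihood test (edgeR 4.0.16, limma 3.58.1, R 4.3.3) were fitted over all 36 libraries with group and cohort as 8 cells, which share 1 estimate of spread, and p-values were Benjamini-Hochberg adjusted at 0.05 over 11341 rows. Rows with no gene opposite, pair sums and antisense rows had fits of their own. Single values were compared with exact two-sided permutation tests in scipy 1.17.1. Replicates of a group differed by more than sampling noise (chi-square per degree of freedom 1.54 to 104.7 over rows with at least 20 counts), so none were merged. In data simulated at these depths, the test recovered 35.8% of genes changed 2-fold and 75.8% of genes changed 3-fold among 11341. Library totals near 1 to 3 M counts limit what low rows can show, and reads carry no molecular identifiers.

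Named genes are 10 that rose and 10 that fell, ranked by p among those that passed in both the fit over all rows and the fit on rows with no gene opposite, the 3 list members and 2 markers per list given by p or level, 5 pairs per direction, Shank3, Slc7a11, and the first 5 genes by p in the interaction and in the 4 h against 1 h comparison. The first group also needed a log2 CPM of 1 or more on average. List members given with a log2 value alone, antisense rows and the genes that passed with the pair share were chosen after their values were seen. Some genes that this rule names are not reported here. Members and lists were chosen with earlier results of these data known. Alternatives were DESeq2 size factors, library totals, no filter on low counts, DESeq2 1.42.0, limma voom, the pair share as a covariate, a replicate block, the 10 libraries alone, and leaving out libraries.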

Additional observations from a re-analysis of the deposited data

Results flagged for a closer look

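In 330 groups of 4 to 6 libraries, 6 values stood apart from the rest of their group, where chance alone flags about 1 in 20 groups. Itga2b had 9.26 CPM in swim replicate 6, against 2.82 to 4.95 CPM in the other swim libraries. Zbtb32 had 36.8 CPM in naive replicate 5, against 58.3 to 60.1 CPM in the other naive libraries. Xbp1 had 9.50 CPM in naive replicate 6, against 5.30 to 5.73 CPM in the others. Stk38l had 11.4 CPM in naive replicate 5, against 4.29 to 5.30 CPM in the others. Among antisense rows, AC109138.6 had 3126 CPM in swim replicate 1, against 3554 to 3781 CPM in the other swim libraries, and Gm17638 had 5825 CPM in swim replicate 2, against 5127 to 5354 CPM.

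For 3 genes every Shank3 swim library lay on one side of the mean of its naive libraries and every WT swim library on the other side of the WT naive mean. In 1 of them, Slc7a11, the response passed in both genotypes, and its interaction was 4.37 on the log2 scale (edgeR adjusted p = 0.062, DESeq2 adjusted p = 0.0027). In the sodium-proton exchanger Slc9a5 and in Myo19 the interaction was 2.32 and -1.09, with an edgeR adjusted p of 1 each, so opposite responses were not shown for them.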

How the results depend on the processing

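Counts higher and lower at 4 h were 6659 and 1758 with library totals, 41 and 19 with the pair share, 1111 and 1111 on rows with no gene opposite and 199 and 152 on antisense rows. With the pair share, rows with no gene opposite gave 4 and 5, pair sums 29 and 18 and antisense rows 19 and 8, and pair sums gave 6227 and 1576 with library totals. Leaving out 1 library gave 3071 to 3844 and 3027 to 3455 over all rows, 913 to 1155 and 941 to 1155 on rows with no gene opposite, 2880 to 3539 and 2794 to 3221 for pair sums, and 166 to 196 and 131 to 165 for antisense rows. Without both naive replicates 6 and 7, which had high ribosomal RNA, the counts were lower. They were 2525 and 2734 over all rows, and 769 and 819 on rows with no gene opposite. The interaction called 0 with each library left out in turn, 5 with no filter on low counts and 1 with DESeq2. The 4 h against 1 h test called 284 and 355 with no filter, 282 and 340 with DESeq2, 40 and 65 with the pair share, 36 and 81 on rows with no gene opposite, 13 and 44 on antisense rows, 35 and 70 with the replicate block, 6 and 72 without naive replicates 6 and 7, and 39 to 346 and 115 to 628 with 1 library left out.

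The replicate block gave 3329 and 3188 over all rows. Same-numbered libraries deviated together with r of 0.14, 0.33 and -0.11 for numbers 4 to 6, and swim replicates did not each correlate best with their own number, so the numbers do not pair the libraries. Of the named rows, 144 kept direction and side of the threshold under the block and 4 lost the call.

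Summing a pair reversed Bhlhe40 (-0.69), Grin1 (-1.37) and Slc1a2 (-0.043). The pair share reversed Nrgn (-0.066), Glul (-0.065), Shank3 (-0.61), Tjap1 (-0.012), Adam17 (0.11), Myo19 (0.12) and the antisense rows 2610020C07Rik (-0.86) and Gm36937 (0.030). Library totals reversed Prpf39 (0.088), Adam17 (0.019), Sla2 (0.059), Myo19 (0.25) and Rprm (0.066). Tjap1 was -0.037 on rows with no gene opposite. The cause of these reversals was not tested. On rows with no gene opposite, marker sums of swim minus naive were 66.2 CPM for interneurons, 0.432 CPM for oligodendrocytes, 1.23 CPM for microglia and 1.09 CPM for choroid plexus and blood. The interneuron sum ranged from 32.3 to 57.9 CPM with 1 library left out. The difference in library totals was 0.845 M counts without ribosomal RNA rows and 0.502 to 0.848 M counts with 1 library left out. With the pair share 24 of the named rows kept direction and side of the threshold, 116 lost the call and 8 reversed. The simulated data held no strand shift and were fitted without the pair share, and 3% of genes changed 1.5-fold were recovered there. That simulation therefore cannot say how many changes the fit with the pair share misses.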
